A study of Mus musculus with 8 samples.

Results

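The circadian clock genes *Arntl*, *Clock*, *Npas2*, *Per1*, *Per2*, *Per3*, *Cry1*, *Cry2*, *Nr1d1* and *Dbp* were examined on 1-colour microarrays of hepatocyte RNA from hCNR1+/+ and hCNR1-/- mice, on which a spot's brightness (intensity) reports the amount of an mRNA. The members were fixed by name, and all 10, out of 21368 named genes on the array, were found through the accession of a probe. They had 11 probes, 1 each and 2 for *Dbp*. Of the 10 genes 8 were measured, and 0 of these passed the test for a difference between genotypes. Of all 11072 genes tested, 1.3% were lower and 2.94% higher in hCNR1-/- by that test. Among the hCNR1+/+ arrays alone, the highest and the lowest *Dbp* level lay 6.95-fold apart.

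Both groups held 4 samples from male mice of 12 to 14 weeks on a standard diet, with no agent given, and no hour of harvest is given in the sources used here. Hepatocyte-specific deletion of *Cnr1*, the gene of the cannabinoid receptor CB1R, came from crossing mice with a floxed *Cnr1* to mice with Cre recombinase under the albumin promoter, which is active in hepatocytes. The strain labels were CNRO for hCNR1+/+ littermates and CNRO Alb-Cre for hCNR1-/- mice, and the labels do not say whether the controls carried the floxed alleles. Samples were numbered 1 to 4 per genotype without a statement that each is a separate mouse, so p-values measure the spread between these samples.

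The molecular clock is a feedback loop that runs in nearly every cell and paces much of liver metabolism. ARNTL pairs with CLOCK or NPAS2 and binds E-box sequences to switch on *Per*, *Cry*, *Nr1d1* and *Dbp*, and PER and CRY proteins then block that pair, while NR1D1 represses *Arntl*. In mouse liver, *Arntl*, *Clock*, *Npas2* and *Cry1* peak in one part of the day and *Dbp*, *Nr1d1* and the *Per* genes in another, so their levels in a single sample depend on the hour at which it was taken.

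The sequence just before the start of transcription is shown for 4 members, *Per1* and *Dbp* as the members that varied least and nearly most between arrays and *Cry1* and *Nr1d1* as members of the negative limb with a clock motif there. Each window holds the 250 bases before a RefSeq start of the assembly GRCm38.p6, 5′ to 3′ on the gene's strand, and capitals mark an E-box (CACGTG) or an E′-box (AACGTG or CACGTT), each searched on both strands.
Per1, chr11:69098699-69098948, plus strand: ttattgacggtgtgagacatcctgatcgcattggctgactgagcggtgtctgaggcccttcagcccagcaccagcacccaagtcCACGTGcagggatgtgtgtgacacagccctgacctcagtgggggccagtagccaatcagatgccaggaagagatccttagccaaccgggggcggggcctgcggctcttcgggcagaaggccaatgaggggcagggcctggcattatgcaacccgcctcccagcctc
Cry1, chr10:85185055-85185304, minus strand: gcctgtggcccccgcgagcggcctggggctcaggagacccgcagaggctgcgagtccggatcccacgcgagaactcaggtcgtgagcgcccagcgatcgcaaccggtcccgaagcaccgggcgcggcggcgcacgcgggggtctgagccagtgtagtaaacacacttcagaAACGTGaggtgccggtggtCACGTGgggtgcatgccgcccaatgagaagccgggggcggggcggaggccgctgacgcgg
Nr1d1, chr11:98775378-98775627, minus strand: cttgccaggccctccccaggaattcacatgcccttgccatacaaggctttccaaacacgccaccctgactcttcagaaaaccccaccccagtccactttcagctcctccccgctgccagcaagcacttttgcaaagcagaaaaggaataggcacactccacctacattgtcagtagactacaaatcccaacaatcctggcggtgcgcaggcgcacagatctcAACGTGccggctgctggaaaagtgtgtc
Dbp, chr7:45704997-45705246, plus strand: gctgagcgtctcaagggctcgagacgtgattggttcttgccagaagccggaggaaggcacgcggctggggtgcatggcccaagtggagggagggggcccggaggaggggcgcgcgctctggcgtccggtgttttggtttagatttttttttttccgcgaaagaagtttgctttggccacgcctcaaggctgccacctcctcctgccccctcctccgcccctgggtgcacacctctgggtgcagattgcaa
The E-box of *Per1* began 166 bases before the start shown, and the window of the other *Per1* start held none of the motifs searched. In *Cry1* the E-box began 60 bases before the start, next to an E′-box at 79 bases. The E′-box of *Nr1d1* began 28 bases before the start. Among all 32851 such windows in the table, 6.02% held an E-box and 3.85% an E′-box. Over the 13 windows of the 9 members with an entry, E-boxes lay in 2 and E′-boxes in 3, the third being *Cry2*. A D-box (TTATGTAA or TTACGTAA), the site of the DBP family, lay in 1 window, that of *Per3*, against 0.932% of all windows, and the core of the site for NR1D1 and the ROR receptors (TAGGTCA) lay in 0 of 13 against 2.23%. A match is a run of letters and says nothing about binding, and no match speaks for this window only.

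A spot counts as well above background when the scanner software flags it so. The single probe of *Cnr1* did not carry this flag on any array (0 of 4 and 0 of 4), so on these arrays the genotypes rest on the labels. The authors also reported a measurement of *Cnr1* mRNA in hepatocytes of both genotypes, which was not used here. All 13 hepatocyte markers, such as *Alb* and *Ttr*, were well above background on every array. The arrays lay on 1 slide scanned on 1 day, with the hCNR1+/+ samples in row 1 and those of hCNR1-/- in row 2, and an effect of the row cannot be told apart from that of the genotype. The 75th percentile of the spot intensity ran from 29.3 to 139, and the share of spots well above background from 28.6% to 42.3%. Replicate 4 of hCNR1-/- was the dimmest array on both measures, and replicate 4 of hCNR1+/+ came next. Values below are log2 intensities after subtracting the array's 75th percentile, so that 0 is the brightness of that percentile. Of the genes named, 11072 were bright enough to test with limma, a linear model that shares the estimate of the spread over genes. Of these, 144 (1.3%) were lower and 325 (2.94%) higher in hCNR1-/- at a Benjamini-Hochberg adjusted p below 0.05. This split moved with the scaling between arrays, to 25 lower and 25 higher with the median, 51 and 30 with the deposited scores, 209 and 101 with a percentile over bright probes, and 29 and 1 with none.

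Of the 8 members tested, 0 were lower and 0 higher by this limma test. At an unadjusted p below 0.05 the members again counted 0 lower and 0 higher, against 6.92% and 14.7% of all genes tested. The lower count was 1 with array weights, a replicate block, a percentile over bright probes, and without replicate 2 of hCNR1-/-, replicate 4 of hCNR1-/- or replicate 4 of both genotypes, and the higher count was 1 without replicate 1 of hCNR1+/+. The direction was negative for 5 members and positive for 3, against 4808 and 6264 of the 11072 genes tested. The median log2 fold change of the members was -0.46, against 0.08 over all genes tested. Without replicate 4 of hCNR1-/- that median was -0.10, and without replicate 4 of both genotypes it was -0.03. The 2 genotypes overlapped for each of the 8 members. Overlap was not counted over all genes tested, so here and in the lists below it has no background to be read against.

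**Figure D1:**
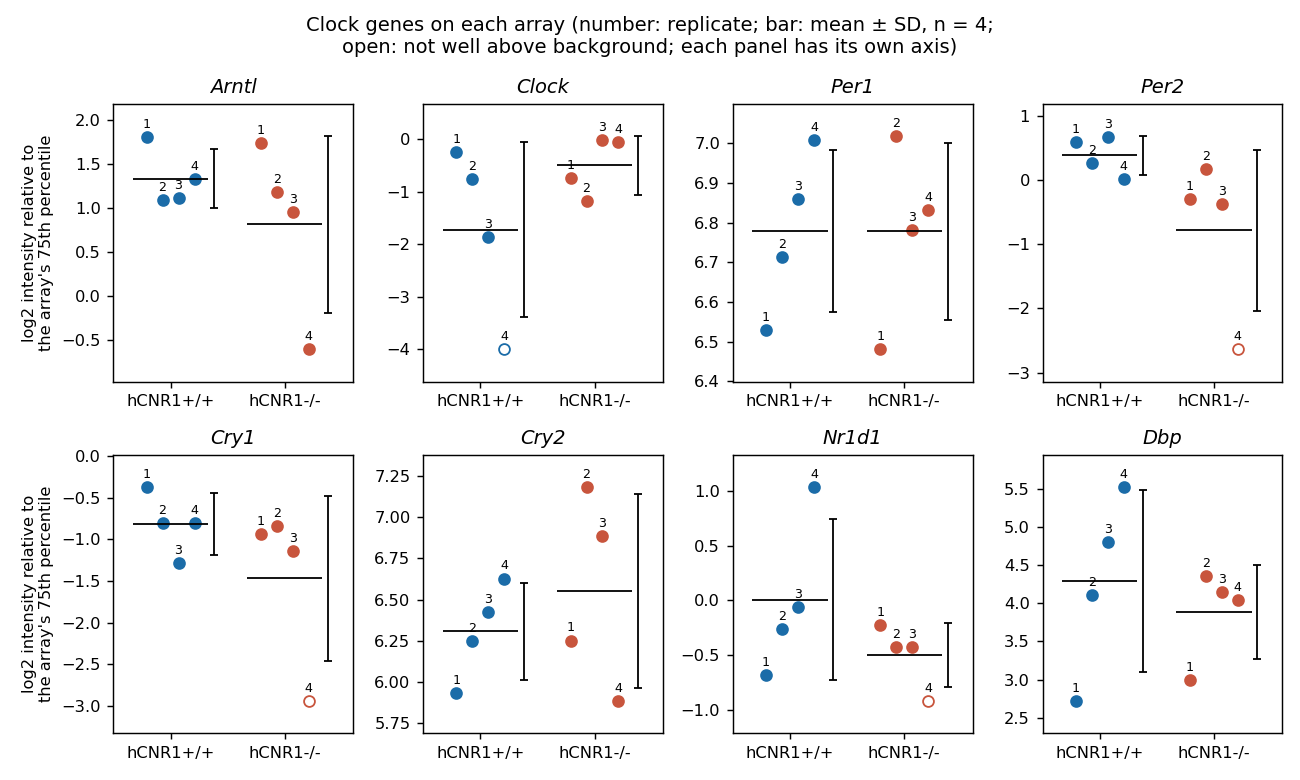
Log2 intensity of 8 clock genes relative to the 75th percentile of each array (vertical axis, 1 scale per panel) by genotype, with 1 point per array, numbered by replicate. The line is the mean, the bar the SD over 4 arrays, and open points were not well above background. The lowest point of *Arntl*, *Per2*, *Cry1*, *Cry2* and *Nr1d1* is replicate 4 of hCNR1-/-, and that of *Clock* replicate 4 of hCNR1+/+.

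The activators come first. *Arntl* (also named Bmal1), the partner the loop cannot run without, was at 1.81, 1.09, 1.12 and 1.34 in hCNR1+/+ replicates 1 to 4 and at 1.74, 1.19, 0.96 and -0.60 in hCNR1-/- replicates. Replicate 1 was the highest array in both genotypes, and replicate 4 of hCNR1-/- lay below all others. The log2 fold change of hCNR1-/- over hCNR1+/+ was -0.52 (95% interval -1.53 to 0.50, limma adjusted p = 0.542). Leaving out replicate 4 of hCNR1-/- brought it to -0.04 with an interval of -0.63 to 0.54.

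*Clock*, its partner in the activating pair, was at -0.26, -0.76, -1.87 and -4.00 in hCNR1+/+ and at -0.73, -1.18, -0.02 and -0.06 in hCNR1-/- replicates. In replicate 4 of hCNR1+/+ it was not well above background, and replicates 3 and 4 of hCNR1-/- lay above every hCNR1+/+ array. Its log2 fold change was 1.23 (95% interval -0.38 to 2.83, limma adjusted p = 0.355) with all 8 arrays. It was 0.47 without replicate 4 of hCNR1+/+.

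*Npas2*, a relative of *Clock* that can take its place, was well above background on 0 of 8 arrays, with an intensity between 2.83 and 7.55. No fold change is given for it, nor for *Per3*, whose intensity lay between 2.99 and 7.84 and which was also well above background on 0 of 8 arrays. Both are therefore bounded from above only.

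Among the repressors, *Per1*, which also answers to hormones and stress, was the steadiest member. It stood at 6.53, 6.71, 6.86 and 7.01 in hCNR1+/+ and at 6.48, 7.02, 6.78 and 6.83 in hCNR1-/- replicates, with equal means of 6.78 (SD 0.20 and 0.22, n = 4 each). The log2 fold change was 0.00 (95% interval -0.46 to 0.46, limma adjusted p = 1.00). Its spread between arrays of 1 genotype, a pooled SD of 0.21, was larger than that of 12.0% of the genes tested.

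*Per2*, the period gene whose loss shortens and then abolishes rhythms in mice, had the lowest p of the members. It was at 0.59, 0.26, 0.67 and 0.01 in hCNR1+/+ and at -0.29, 0.16, -0.38 and -2.64 in hCNR1-/- replicates. Replicates 1 and 3 of hCNR1-/- lay below every hCNR1+/+ array, replicate 2 lay within them, and in replicate 4 the spot was not well above background. The log2 fold change was -1.17 (95% interval -2.38 to 0.04, limma p = 0.0570, adjusted p = 0.245), and p was 0.0571 by exact permutation of the arrays (70 assignments). The size rested on the dim array, since without it the log2 fold change was -0.55 (95% interval -1.06 to -0.04, limma adjusted p = 0.131). With array weights, which give less weight to arrays that fit poorly, it was -0.73 at a limma adjusted p of 0.0459. This was the only call among the members under any alternative. With those weights 646 of all genes tested were lower and 2176 higher, against 144 and 325 in the main fit. The *Per2* call therefore came from a fit in which calls were more common over all genes. All 21 alternatives gave a negative value for *Per2*, from -1.72 to -0.41.

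*Cry1*, the cryptochrome that acts late in the repressive phase, was at -0.37, -0.81, -1.29 and -0.80 in hCNR1+/+ and at -0.94, -0.84, -1.14 and -2.94 in hCNR1-/- replicates. The first 3 hCNR1-/- arrays lay within the hCNR1+/+ range, and the spot of the last was not well above background. The log2 fold change of -0.65 (95% interval -1.67 to 0.37, limma adjusted p = 0.441) shrank to -0.16 without that array.

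*Cry2*, the second cryptochrome, was at 5.93, 6.25, 6.43 and 6.63 in hCNR1+/+ and at 6.25, 7.18, 6.89 and 5.88 in hCNR1-/- replicates. Replicates 2 and 3 of hCNR1-/- lay above every hCNR1+/+ array and replicate 4 below them all. The log2 fold change was 0.24 (95% interval -0.46 to 0.94, limma adjusted p = 0.683). Where arrays were not scaled it was -0.31, but the median of all genes then moved to -0.47, and relative to that median *Cry2* stood at 0.16.

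**Figure D2:**
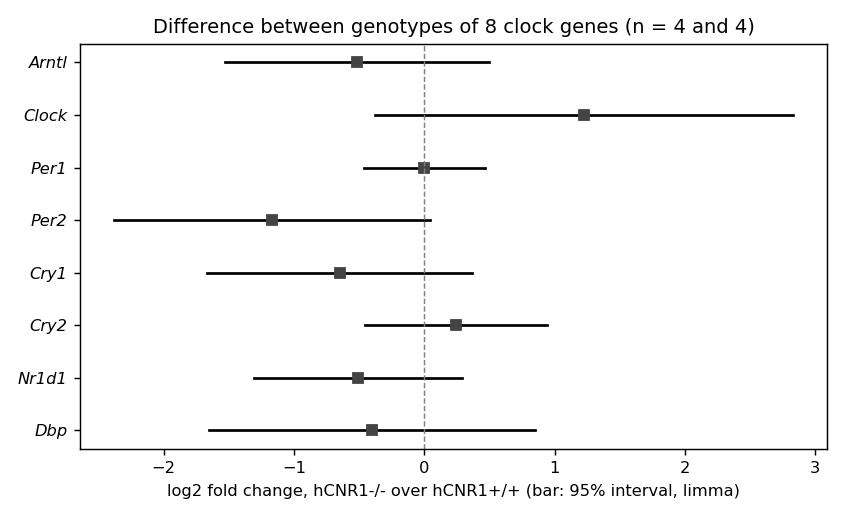
Log2 fold change of hCNR1-/- over hCNR1+/+ (horizontal axis) of the 8 measured clock genes, with the 95% interval of the limma fit as a bar, for 4 arrays per genotype. The intervals of all 8 genes reach across 0, that of *Per2* ending at 0.04.

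*Nr1d1* (REV-ERB alpha), the nuclear receptor that ties the clock to metabolism, was at -0.68, -0.26, -0.06 and 1.04 in hCNR1+/+ and at -0.22, -0.43, -0.43 and -0.92 in hCNR1-/- replicates. Replicate 4 of hCNR1+/+ was the highest array, and in replicate 4 of hCNR1-/- the spot was not well above background. The log2 fold change of -0.51 (95% interval -1.31 to 0.29, limma adjusted p = 0.443) became -0.16 without replicate 4 of hCNR1+/+.

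*Dbp*, a transcription factor that carries the clock's rhythm to liver enzymes, had the widest range of the members that were well above background on every array. Its brighter probe was at 2.72, 4.11, 4.80 and 5.52 in hCNR1+/+ and at 2.99, 4.36, 4.15 and 4.04 in hCNR1-/- replicates. Replicate 1 was the lowest array of both genotypes, and the hCNR1+/+ arrays spanned the hCNR1-/- arrays on both sides. The second *Dbp* probe stood at 2.30, 3.76, 4.45 and 5.22 (hCNR1+/+) and at 2.71, 4.18, 4.004 and 3.59 (hCNR1-/-), and the probes followed each other over the 8 arrays with r = 0.99. The brighter probe had a log2 fold change of -0.40 (95% interval -1.65 to 0.85, limma adjusted p = 0.704), and the value was 0.01 without replicate 4 of hCNR1+/+. Its pooled SD within a genotype, 0.95, was larger than that of 94.9% of the genes tested, and only *Clock* (SD 1.24, 98.7%) ranked higher among the members. The median SD over all genes tested was 0.43.

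The question of whether single arrays differed in their clock state was addressed with differences inside an array, which scaling by a constant leaves unchanged. For each gene the mean over the 8 arrays was subtracted first. *Dbp* minus *Arntl*, genes of opposite phase, then came to -2.09, 0.01, 0.68 and 1.18 in hCNR1+/+ and to -1.76, 0.17, 0.18 and 1.64 in hCNR1-/- replicates 1 to 4. Replicate 1 of both genotypes lay below the other 6 arrays, which all lay above 0. The genotype means were -0.06 ± 1.44 and 0.06 ± 1.39 (SD, n = 4 each). In hCNR1-/- replicate 4 the high value came from a low *Arntl* (deviation -1.68) and not from *Dbp* (-0.05).

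The difference of *Dbp* and *Per1*, whose peaks lie near each other, took the values -1.11, 0.09, 0.63 and 1.20 (hCNR1+/+) and -0.80, 0.03, 0.06 and -0.10 (hCNR1-/-). Replicate 1 was again the lowest array of each genotype. These 2 arrays lay in the first column of the slide, and they had the highest share of spots well above background in their genotype, 42.3% and 39.3%, and their part in this difference was not tested.

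A phase contrast over the measured members, the mean deviation of *Per1*, *Per2*, *Nr1d1* and *Dbp* minus that of *Arntl*, *Clock* and *Cry1*, took the values -1.10, -0.13, 0.75 and 1.56 (hCNR1+/+) and -0.78, 0.06, -0.40 and 0.04 (hCNR1-/-). The 4 hCNR1+/+ arrays covered the whole range, and all hCNR1-/- arrays lay inside it. The means were 0.27 ± 1.14 in hCNR1+/+ and -0.27 ± 0.40 in hCNR1-/- (SD, n = 4 each), a difference of -0.54 that was smaller than the spread of hCNR1+/+ alone. Over the members well above background on all 8 arrays (*Per1*, *Dbp* and *Arntl*) the difference was 0.32, so its direction depended on the members taken. This value includes *Arntl* on replicate 4 of hCNR1-/-, and without that array the *Arntl* log2 fold change was -0.04. Over all measured members of the contrast, the difference was -0.155 with spots below background left out. It was -0.213 without replicate 4 of both genotypes. The contrast of replicate 4 of hCNR1+/+ includes the *Clock* spot that was not well above background.

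**Figure D3:**
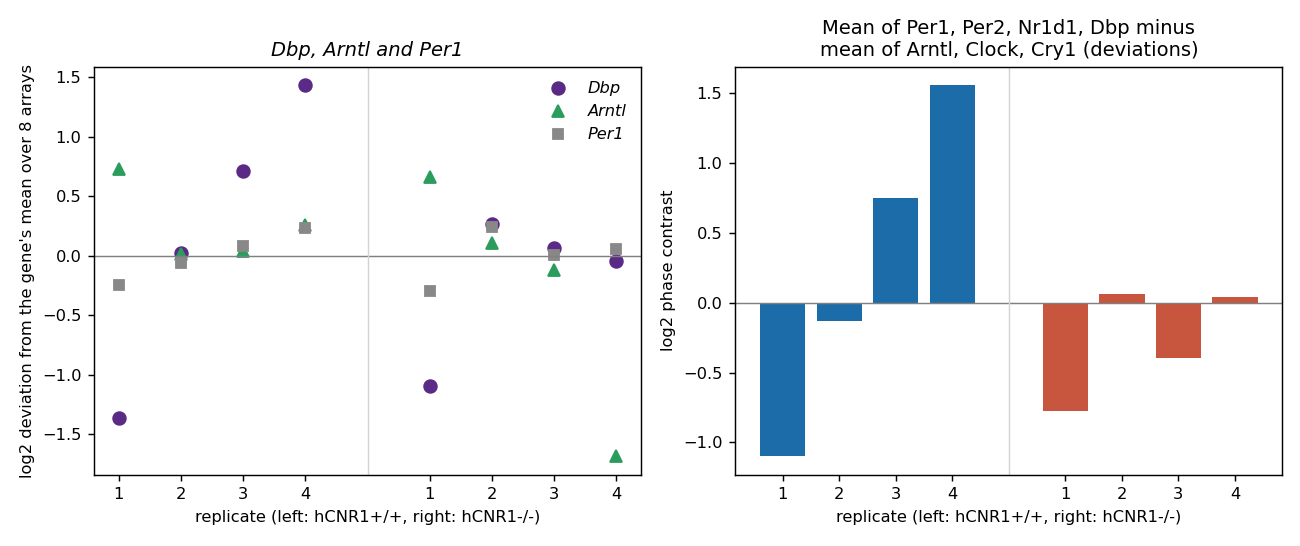
Left, log2 deviation of *Dbp*, *Arntl* and *Per1* on each array from the gene's mean over 8 arrays. Right, the log2 phase contrast of each array, with hCNR1+/+ in blue and hCNR1-/- in red. Replicate 1 of both genotypes pairs low *Dbp* (-1.36 and -1.09) with high *Arntl* (0.73 and 0.66), while *Per1* deviates by less than 0.3 on every array.

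Pairs of members were then followed over the 8 arrays, 28 pairs in all. By exact permutation tests of Pearson's r, p was below 0.05 for 5 pairs before adjustment and for 0 after it. The share among pairs of other genes was not counted. The lowest p belonged to *Clock* and *Nr1d1* (r = -0.95, exact p = 0.00208, adjusted p = 0.0583; rho = -0.83, exact p = 0.0154, adjusted p = 0.215). Without the 2 arrays farthest from the median of *Clock*, r was -0.60, and one of those 2 is the array on which *Clock* was not well above background. *Per1* and *Dbp* followed (r = 0.89, exact p = 0.00583, adjusted p = 0.0792; rho = 0.83, exact p = 0.0154), with r = 0.65 without the 2 arrays farthest from the median of *Per1*. *Arntl* and *Cry1* had r = 0.95 (exact p = 0.00848, adjusted p = 0.0792; rho = 0.71, exact p = 0.0576), which rested on the arrays farthest from the median of *Arntl*, as r was 0.32 without them. *Clock* and *Dbp* had r = -0.75 (exact p = 0.0298, adjusted p = 0.209), and -0.16 without the 2 arrays farthest for *Clock*. *Per2* and *Cry1* had r = 0.91 (exact p = 0.0378, adjusted p = 0.212), and 0.92 without the 2 arrays farthest for *Per2*. Replicate 4 of hCNR1-/-, where neither spot was well above background, was left out there together with replicate 3 of hCNR1+/+. The latter had the highest *Per2* and the lowest *Cry1* of the hCNR1+/+ arrays. The value without replicate 4 of hCNR1-/- alone was not computed. By rank, *Per2* and *Cry1* had rho = 0.43 (exact p = 0.299). *Arntl* and *Dbp*, members of opposite phase, had r = -0.26 (exact p = 0.501; rho = -0.21, exact p = 0.619), and r = -0.46 without the 2 farthest arrays.

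As a description, the genes most like *Dbp* over the 8 arrays, each centred within its genotype, were *Serpina6* (r = 0.99), *Kdm8* (0.98), *Car5a* (0.98), *Clcn2* (0.98) and *Bace2* (0.98), out of 8338 genes well above background on all arrays. Those most like *Arntl* were *Tubgcp4*, *Phf7*, *Coq5*, *Dync1h1* and *Clcn5*, each with r between 0.99 and 1.00. With 8 arrays and so many genes searched, values of this size are selected by the search.

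**Figure D4:**
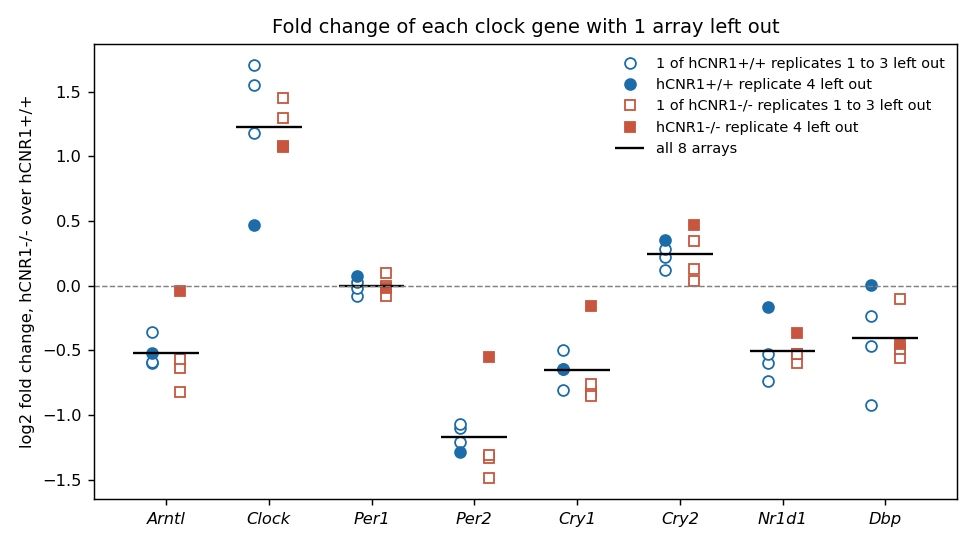
Log2 fold change of hCNR1-/- over hCNR1+/+ (vertical axis) of each member with all 8 arrays (line) and with 1 array left out (circles, hCNR1+/+; squares, hCNR1-/-; filled, replicate 4). Leaving out replicate 4 of hCNR1-/- brought *Arntl*, *Per2* and *Cry1* closest to 0, and leaving out replicate 4 of hCNR1+/+ did so for *Clock*, *Nr1d1* and *Dbp*.

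Other parts of the clock machinery were described from 4 more lists. The counts in these and the marker lists below stand against the shares over all genes tested. Those were 1.3% lower and 2.94% higher by the adjusted limma test, and 6.92% and 14.7% at an unadjusted p below 0.05. Among 14 other clock factors, 13 were measured and 0 were lower and 0 higher by the adjusted limma test (1 and 2 at an unadjusted p below 0.05), with a median log2 fold change of -0.32. Closest was *Nr1d2* (REV-ERB beta), the partner of *Nr1d1* in repressing *Arntl*. It was at -0.52, -0.94, -1.08 and -1.16 in hCNR1+/+ and at -0.23, -0.36, 0.35 and 0.08 in hCNR1-/- replicates. All hCNR1-/- arrays lay above all hCNR1+/+ arrays, and the log2 fold change was 0.89 ± 0.24 (SE, limma adjusted p = 0.0688). This was opposite in sign to that of *Nr1d1*, whose interval reached across 0. Under 22 alternatives *Nr1d2* ran from 0.28 to 1.02 and passed the threshold under 1. Its limma adjusted p ran from 0.0144 with array weights to 0.891 with no scaling. *Tipin*, a replication fork protein that binds TIMELESS, followed with -0.86 (limma adjusted p = 0.154), and *Rora*, the receptor that activates *Arntl*, with 0.73 (limma adjusted p = 0.221).

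Of 15 genes that modify or degrade clock proteins, 14 were measured, and 1 was higher and 0 lower in hCNR1-/-, against 2.94% and 1.3% of all genes tested. The gene called was *Sirt1*, a deacetylase that acts on ARNTL and PER2. *Sirt1* was at -0.25, -0.70, -1.25 and -1.23 in hCNR1+/+ and at 0.56, 1.12, 1.57 and 1.41 in hCNR1-/- replicates. No hCNR1-/- array overlapped the hCNR1+/+ arrays, and the log2 fold change was 2.02 ± 0.31 (SE, limma adjusted p = 0.0156). It was positive under all 22 alternatives and past the threshold under 14, with adjusted p from 0.00202 with array weights to 0.683 with no scaling. *Ncor1*, the corepressor that NR1D1 recruits, had a log2 fold change of 0.74 (limma adjusted p = 0.0976), and *Csnk2a1*, a kinase that phosphorylates ARNTL and PER2, one of 0.57 (limma adjusted p = 0.226). The median of the list was 0.13. Without replicate 4 of hCNR1-/-, 3 genes of this list were higher, *Sirt1*, *Nono* and *Ncor1*, in a refit in which the higher calls over all genes rose from 325 to 1121.

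Of 16 liver genes known as outputs of the clock, 14 were measured, 11 of them with a negative and 3 with a positive log2 fold change, and 0 were lower and 0 higher by the adjusted limma test (3 and 0 at an unadjusted p below 0.05). Of all 11072 genes tested, 4808 had a negative and 6264 a positive log2 fold change. At an unadjusted p below 0.05, 6.92% of all genes tested were lower and 14.7% higher. The median of the list was -0.61, and -0.20 without replicate 4 of hCNR1-/-. The 3 lowest p belonged to *Alas1*, the first enzyme of heme synthesis (-0.97, limma adjusted p = 0.128), *Nampt*, of the NAD salvage pathway (-0.71, limma adjusted p = 0.129), and *Insig2*, which holds back sterol synthesis (-1.06, limma adjusted p = 0.167). For *Alas1*, hCNR1+/+ replicates were at 8.19, 8.21, 9.12 and 9.49 and hCNR1-/- replicates at 7.41, 7.98, 8.01 and 7.73, with no overlap.

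Of 16 genes set by body temperature, glucocorticoids or feeding, which also vary over the day, 15 were measured and 0 were lower and 0 higher by the adjusted limma test (1 and 0 at an unadjusted p below 0.05), with a median of -0.13. *Pck1*, the fasting-induced enzyme of gluconeogenesis, was at 4.99, 4.46, 5.32 and 6.17 in hCNR1+/+ and at 3.01, 4.08, 3.999 and 2.62 in hCNR1-/- replicates. All hCNR1-/- arrays lay below all hCNR1+/+ arrays, with a log2 fold change of -1.81 ± 0.44 (SE, limma adjusted p = 0.0515). The call depended on the processing, as *Pck1* passed the threshold under 7 of 22 alternatives, with adjusted p from 0.0125 with array weights to 0.299. *Angptl4*, another fasting gene, had 0.40 (limma adjusted p = 0.282) and *Cirbp*, an RNA-binding protein that rises in the cold, -0.32 (limma adjusted p = 0.450).

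**Figure D5:**
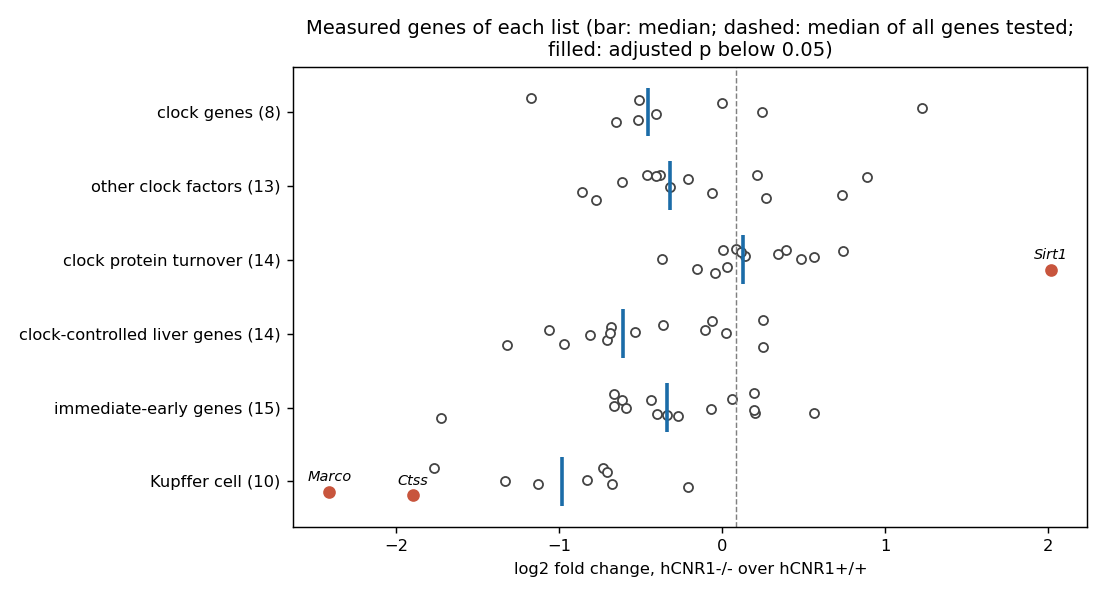
Log2 fold change of hCNR1-/- over hCNR1+/+ (horizontal axis) of the measured genes in 6 lists, with the number measured in brackets, the list's median as a bar and the median of all genes tested as a dashed line. Filled points passed an adjusted p of 0.05: *Sirt1* among genes acting on clock proteins and *Marco* and *Ctss* among Kupffer cell markers, and none of the 8 clock genes.

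Isolation of cells and other cell types could move with these values, so their markers were read as well. Of 16 immediate-early genes, which rise when cells are taken from tissue, 15 were measured and 0 were called in either direction by the adjusted limma test (0 lower and 1 higher, *Jun*, at an unadjusted p below 0.05), with a median of -0.34. Their mean level ran from 3.24 to 4.24 in hCNR1+/+ and from 3.02 to 3.95 in hCNR1-/- arrays. *Jun* had a log2 fold change of 0.56 (limma adjusted p = 0.203), *Fosb* -0.66 (0.314) and *Zfp36* -0.66 (0.335). Replicate 1 of hCNR1+/+ was the lowest array of its genotype for this list as it was for *Dbp*, and replicate 4 of hCNR1-/- was the lowest of its own.

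Of 13 markers of Kupffer cells, the macrophages of the liver, 10 were measured. All 10 had a negative log2 fold change with a median of -0.98, and 2 of them were lower by the adjusted test, *Ctss* (-1.89, limma adjusted p = 0.0124) and *Marco* (-2.41, limma adjusted p = 0.0336). Of all 11072 genes tested, 4808 had a negative log2 fold change and 1.3% were lower by the adjusted test. *Ctss* lost its call under 6 of 21 alternatives and *Marco* under 11 of 22, both of them under no scaling, normexp, no filter and the replicate block among others. *Ctss* was well above background on only 6 of 8 arrays. Its log2 fold change ran from -2.45 with no scaling to -0.60 with normexp (limma adjusted p = 0.325). The mean level of the list ran from 1.39 to 2.59 in hCNR1+/+ and from 0.23 to 1.12 in hCNR1-/- arrays. *Timd4*, *Adgre1* and *Cd163* were not bright enough to test. Among 3 measured lymphocyte markers of 11 the mean level ran from 3.57 to 4.01 in hCNR1+/+ and from 3.98 to 5.30 in hCNR1-/- arrays, with 0 called. Endothelial (10 of 12 measured), stellate cell (2 of 10) and hepatocyte markers (13 of 13) had 0 called in either direction, with medians of -0.13, -0.28 and -0.01. In such bulk samples fewer cells of a type and less RNA per cell cannot be told apart, and the part of these cells in the clock gene values was not tested.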

How the data were processed

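RNA of 8 samples of isolated hepatocytes was labelled with Cy3 and hybridised to Agilent arrays. The authors deposited spot intensities that Feature Extraction had corrected for background, with no scaling from array to array, and 1 score per spot, equal within 0.005 to a z-score of log intensities in its array. For the arrays the methods refer to an earlier publication and name R Studio, so the scaling and test used here may differ from the authors'. The authors deposited no log2 values, so log2 was taken here, less each array's own 75th percentile over 59305 non-control spots. Outlier spots were left out and spots of a probe averaged. Accessions matched without versions to RefSeq (GRCm38.p6) named 28331 of 55681 probes. A gene was tested on its brightest probe, if well above background in 4 or more of 8 arrays, with lmFit and eBayes of limma version 3.58.1 (R version 4.3.3, two-sided, Benjamini-Hochberg over 11072 genes). On simulated data for this comparison, 74.5% of 200 genes given a 4-fold change among the 11072 were recovered. That share is an average over genes drawn at random, and it depends on the size of the change and on each gene's spread. The pooled SD of the members ran from 0.21 (*Per1*) to 1.24 (*Clock*), against a median of 0.43. This share therefore does not carry over to single members, and no member had an estimate of a 4-fold change. Single values had a two-sided exact permutation test, whose smallest p is 0.0286. Correlations used all 40320 pairings. Named genes are the members and, per list, those past the adjusted threshold or the 3 lowest p. The members and lists were chosen with earlier results of these data known. *Cyp2a5*, *Hspa1b* and *Trbc2* had no named probe. The labels state no pairing by replicate number, and the main fit used none. Over all genes tested, the same-number correlations of deviations from the group means were 0.21, -0.16, -0.05 and 0.02. Replicate number was also the column on the slide, and whether same-numbered samples shared an hour of harvest was not tested. The alternatives were other scalings, background corrections, filters, probe choices, variance models, array weights, a replicate block and left-out arrays.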

Additional observations from a re-analysis of the deposited data

Results flagged for a closer look

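In 40 groups of 4 arrays (8 members, the second *Dbp* probe, the phase contrast and 10 lists, in each genotype), the gap of the highest or lowest array to its neighbour was set against the group's range. The ratio passed Dixon's 95% limit in 2 groups, and chance alone passes it in about 1 group in 20. *Cry1* in hCNR1-/- was flagged at 0.859, with replicate 4 at -2.94 and the other 3 arrays between -1.14 and -0.84. The mean of the lymphocyte markers in hCNR1-/- was flagged at 0.852, with replicate 4 at 5.30 and the others between 3.98 and 4.18. Both come from the dimmest array, whose 75th percentile was 29.3.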

How the results depend on the processing

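Over 172 refits of the 8 members, 158 gave the same direction and side of the threshold, 13 turned the direction without a call and 1 made a call. The call was *Per2* with array weights (1 clock gene lower). *Per1*, whose value is near 0, turned to -0.25 with quantile normalization, -0.0461 with median scaling, -0.56 with no scaling, -0.00864 with the deposited scores, -0.0781 with normexp, -0.16 with a percentile over bright probes, and ran from -0.0825 to 0.0998 with 1 array left out (negative without replicates 1 and 2 of hCNR1+/+ and 2, 3 and 4 of hCNR1-/-). *Cry2* turned to -0.31 with no scaling and *Dbp* ran from -0.924 without replicate 1 of hCNR1+/+ to 0.00782 without replicate 4 of hCNR1+/+. With a replicate block, 0 genes were lower and 0 higher (144 and 325 without it), and *Per2* had a limma adjusted p of 0.201. Lower and higher counts over all genes were 86 and 131 with quantile normalization, 25 and 25 with median scaling, 29 and 1 with no scaling, 51 and 30 with the deposited scores, 13 and 28 with normexp, 14 and 8 with no filter, and 646 and 2176 with array weights. They were 54 lower where every array had to be well above background, 101 higher with a percentile over bright probes, and 480 and 1701 without both dimmest arrays, alternatives of which the last 2, and leaving out spots below background, were chosen after seeing the data. Leaving out 1 array gave 25 to 323 lower and 13 to 1121 higher, the fewest without replicate 3 of hCNR1+/+ and the most without replicate 4 of hCNR1-/-. The cause was not tested. With no scaling the median log2 fold change of all genes was -0.47, against 0.08, so relative to it *Per1* stood at -0.08 and *Cry2* at 0.16. The phase contrast between genotypes ran from -0.99 to -0.11 with 1 array left out. Dim spots limit *Clock*, *Per2*, *Cry1* and *Nr1d1*, each not well above background on 1 array, and 4 arrays per genotype limit all values.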
